A study of Mus musculus with 6 samples.

Results

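The Gdnf family is described here through 9 genes, chosen by name: the receptor tyrosine kinase gene Ret, its co-receptor genes Gfra1, Gfra2, Gfra3 and Gfra4, and the ligand genes Gdnf, Nrtn, Artn and Pspn. All 9 were found once each among the 39174 genes of the tables. They were followed in 6 RNA-seq libraries of primary mouse motoneuron cultures, 3 labelled Nmd+/+ and 3 labelled Nmd-/-, of a strain given as CD-1, with replicates numbered 1 to 3 in each genotype. The nmd allele, named for neuromuscular degeneration, lies in the helicase gene Ighmbp2, whose human form is mutated in the motoneuron disease SMARD1, which the study's title names. No treatment, age or time in culture is given in the labels, and none of them says whether replicates came from separate animals or cultures. The p-values below therefore measure the spread between these libraries, which may be technical in part.

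Ligands of this family reach Ret through co-receptors that are anchored to the membrane by a lipid and carry no kinase of their own. Gdnf prefers Gfra1, neurturin (Nrtn) prefers Gfra2, artemin (Artn) prefers Gfra3 and persephin (Pspn) prefers Gfra4, and the complex then brings Ret molecules together, which phosphorylate each other. In the embryo Gdnf from muscle and from Schwann cells keeps motoneurons alive and guides their axons. Ret and its co-receptors are also found in sensory, autonomic and enteric neurons and in other neurons of the spinal cord.

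Values are FPKM, fragments per kilobase of transcript scaled to the size of the library, as deposited, and so can be compared between genes of different length. Fragments read from the width of the deposited 95% intervals summed over genes to between 15381970 and 23072408 per library. This sum reflects the precision of the estimates and is not a count of the fragments sequenced. From 14474 to 14645 genes had at least 1 FPKM. Ighmbp2, the gene the labels concern, averaged 1.28 ± 0.17 in the Nmd+/+ and 0.754 ± 0.142 FPKM in the Nmd-/- libraries (SD, n = 3 each), with no overlap (exact two-sided permutation p = 0.1, the smallest that 3 against 3 libraries allow). Of 7 motoneuron markers in the files 6 stayed under 1 FPKM in every library, among them Chat, Mnx1, Isl2 and Prph. The 10 markers of other spinal neurons all reached a mean of 1 FPKM and summed to between 129.0 and 275.6 FPKM. The 9 markers of radial glia and astrocytes also all reached it and summed to between 3155.5 and 4987.8 FPKM, most of it Vim. The 4 markers of dividing cells summed to between 160.4 and 245.4 FPKM. The label of a motoneuron culture is thus not borne out by the defining motoneuron markers, and each level below is that of the culture as sequenced, in which fewer cells of a type and less RNA per cell cannot be told apart. Both libraries numbered 2 stood apart by fibroblast transcripts, whose 6 markers summed to 140.8 and 173.5 FPKM there and to between 2.22 and 3.52 FPKM in the other 4. They also held the highest sums of 7 Schwann cell and neural crest markers, 30.2 FPKM in Nmd+/+ and 10.6 FPKM in Nmd-/-, against between 3.78 and 5.75 FPKM.

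Transcripts of the co-receptor genes Gfra1, Gfra2 and Gfra4 were each far more abundant than those of Ret in every library. Ret (ENSMUSG00000030110, chromosome 6, 118151748 to 118197744, GRCm38), the signalling subunit, measured 3.71, 1.73 and 3.85 FPKM in Nmd+/+ replicates 1, 2 and 3 and 3.26, 1.79 and 2.61 FPKM in Nmd-/- replicates 1, 2 and 3. The lowest value of each genotype was that of replicate 2, and the genotypes overlapped. Its 6 estimates rested on between 344 and 932 fragments, as read from the intervals.

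Gfra2 (ENSMUSG00000022103, chromosome 14, 70890130 to 70979838), the preferred partner of neurturin, had the highest mean of the 9, 13.4 ± 3.7 FPKM (SD over 6 libraries). It measured 17.97, 8.93 and 15.1 FPKM in Nmd+/+ and 16.5, 10.3 and 11.5 FPKM in Nmd-/-, in the order of the replicate numbers. Gfra1 (ENSMUSG00000025089, chromosome 19, 58235604 to 58455909), the co-receptor of Gdnf itself, followed at 12.9 ± 3.1 FPKM (SD over 6 libraries). Which of these co-receptors was higher depended on the library, since Gfra2 exceeded Gfra1 in 3 of 6, and their means lay closer than either SD. Gfra1 measured 15.6, 9.999 and 16.6 FPKM in Nmd+/+ and 14.3, 8.76 and 12.3 FPKM in Nmd-/-. An exon of Gfra1 overlaps an exon of the antisense gene Gm16277, which measured between 2.64 and 10.8 FPKM. Whether strand was used in quantification is not given in the sources used here, so reads of these genes may not have been told apart.

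Gfra4 (ENSMUSG00000027316, chromosome 2, 131039632 to 131043088), which binds persephin, was the third co-receptor at 10.2 ± 3.7 FPKM (SD over 6 libraries), below Gfra1 in 6 of 6 libraries. Its values were 13.3, 5.23 and 12.8 FPKM in Nmd+/+ and 13.5, 6.39 and 9.73 FPKM in Nmd-/-. Gfra3 (ENSMUSG00000024366, chromosome 18, 34689903 to 34720387), the artemin co-receptor known from sensory neurons and Schwann cells, was of another order. It measured 0.0851, 2.19 and 0.0579 FPKM in Nmd+/+ and 0.0279, 0.205 and 0.0611 FPKM in Nmd-/-. Nmd+/+ replicate 2 thus held most of the Gfra3 signal of the series, with an interval worth 139 fragments against between 1.99 and 20 in each of the other libraries.

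Nrtn had the highest mean of the ligands and Gdnf the next. Nrtn (ENSMUSG00000039481, chromosome 17, 56751325 to 56757530) measured 4.02, 2.02 and 2.68 FPKM in Nmd+/+ and 3.64, 3.55 and 4.76 FPKM in Nmd-/-, and exceeded Ret in 5 of 6 libraries. Gdnf (ENSMUSG00000022144, chromosome 15, 7811011 to 7837575), the founding ligand, measured 0.612, 1.12 and 0.631 FPKM in Nmd+/+ and 0.704, 1.797 and 0.636 FPKM in Nmd-/-. The 4 libraries not numbered 2 lay between 0.612 and 0.704 FPKM for Gdnf, and both libraries numbered 2 lay above them. In Nmd-/- replicate 2 Gdnf was at the level of Ret, which measured 1.79 FPKM there, and in the other 5 libraries it was lower than Ret.

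Artn (ENSMUSG00000028539, chromosome 4, 117926162 to 117929763) measured 0.192, 0.798 and 0.148 FPKM in Nmd+/+ and 0.213, 0.369 and 0.159 FPKM in Nmd-/-, from at most 20.9 fragments. Pspn (ENSMUSG00000002664, chromosome 17, 56999457 to 57000018) did not exceed 0.171 FPKM and was listed at 0 in Nmd+/+ replicate 2. With no more than 3.996 fragments behind any Pspn value, its differences between libraries were not detectable at this depth. The ranking of the 9 genes by mean FPKM therefore ran from Gfra2, Gfra1 and Gfra4 through Nrtn and Ret to Gdnf, with Gfra3, Artn and Pspn at or near the limit of detection in most libraries.

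**Figure D1:**
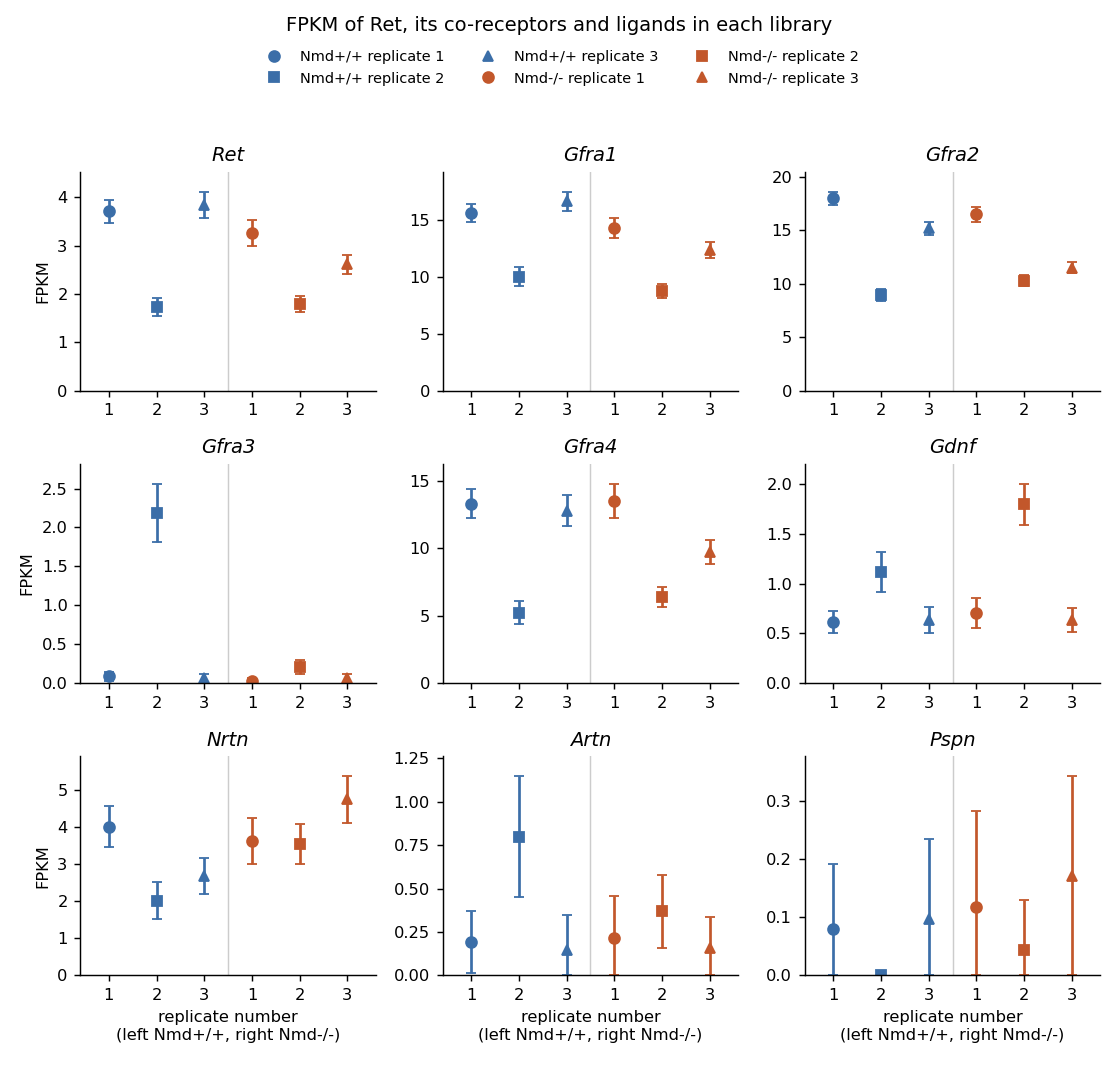
FPKM of the 9 genes in each library, with replicate numbers on the horizontal axis and the deposited 95% intervals, which cover estimation error within a library, as bars. In both genotypes replicate 2 is the lowest for Ret, Gfra1, Gfra2 and Gfra4 and the highest for Gfra3, Gdnf and Artn.

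For Ret, Gfra1, Gfra2 and Gfra4 the libraries differed by replicate number in a test that passed, which the test between genotypes did not. Ret, Gfra1, Gfra2 and Gfra4 were lower in both libraries numbered 2 than in all of the other 4, and Gfra3, Gdnf and Artn were higher. The mean of the other 4 libraries over that of the libraries numbered 2 was 1.91 for Ret, 1.57 for Gfra1, 1.59 for Gfra2 and 2.12 for Gfra4. The ratio ran the opposite way for Gdnf, whose libraries numbered 2 had 2.26 times the mean of the others, and for Artn, at 3.28 times. For Gfra3 it was 20.6 times, carried mainly by Nmd+/+ replicate 2. Libraries numbered 2 were singled out after their values were seen. Among all 14611 genes with a mean of at least 1 FPKM, 18.8% were lower in both libraries numbered 2 than in the rest and 20.6% were higher. Gfra3, Gdnf and Artn had means under 1 FPKM and are not among these genes, and no such share was taken for genes of their level.

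The F test of the replicate number, in limma with genotype in the model and Benjamini-Hochberg adjustment, asked how far the numbers differed over all genes. It passed at adjusted p 0.05 for 28.6% of the 14611 genes, and for 4 of the 5 family members among them. They were Gfra4 (adjusted p = 0.00335), Gfra2 (adjusted p = 0.0131), Gfra1 (adjusted p = 0.0134) and Ret (adjusted p = 0.0164). Nrtn, whose lowest value was Nmd+/+ replicate 2 while Nmd-/- replicate 2 lay among the others, did not pass (adjusted p = 0.252). The call for Ret ended without Nmd+/+ replicate 2 (adjusted p = 0.0790), and all 4 calls ended with no filter on low values (adjusted p between 0.301 and 0.374), where 12 of all genes passed. The number of all genes that passed, 4173, changed to 2280 when Nmd+/+ replicate 1 was left out, to 2664 for replicate 1 of Nmd-/- and to 6470 for its replicate 2.

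For the members under 1 FPKM the same test was repeated over the 19200 genes with a mean of at least 0.1 FPKM, of which 15.7% passed. Gdnf passed in limma (adjusted p = 0.0363), while Artn (adjusted p = 0.0740) and Gfra3 (adjusted p = 0.105) did not. Ret, Gfra1, Gfra2 and Gfra4 also passed there. Pspn was too low to enter.

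Levels of other spinal neuron markers moved with Ret, Gfra1, Gfra2 and Gfra4 across the libraries, and Gfra3 ran the opposite way. Of 3 sensory neuron markers tested, 1 was lower in both libraries numbered 2 than in the rest, as was the 1 motoneuron marker tested. All 10 markers of other spinal neurons were lower there, as were 18.8% of all genes tested. All 10 passed the F test of the replicate number, beside 28.6% of all genes tested. Taken against the sum of these 10 markers, Ret was nearly level: it amounted to 1.35%, 1.34% and 1.501% of that sum in Nmd+/+ replicates 1, 2 and 3 and to 1.24%, 1.28% and 1.31% in Nmd-/- replicates 1, 2 and 3. Gfra4 amounted to between 4.05% and 5.14% of the same sum, Gfra2 to between 5.76% and 7.34%, and Gfra1 to between 5.42% and 7.75%. Nrtn spread more widely, from 1.05% in Nmd+/+ replicate 3 to 2.54% in Nmd-/- replicate 2. The sum of Schwann cell and neural crest markers was highest in the library with the highest Gfra3, and Gfra3 came to 7.24% of that sum there against between 0.659% and 1.93% in the other 5. The part of these cell types in the differences between replicate numbers was not tested.

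**Figure D2:**
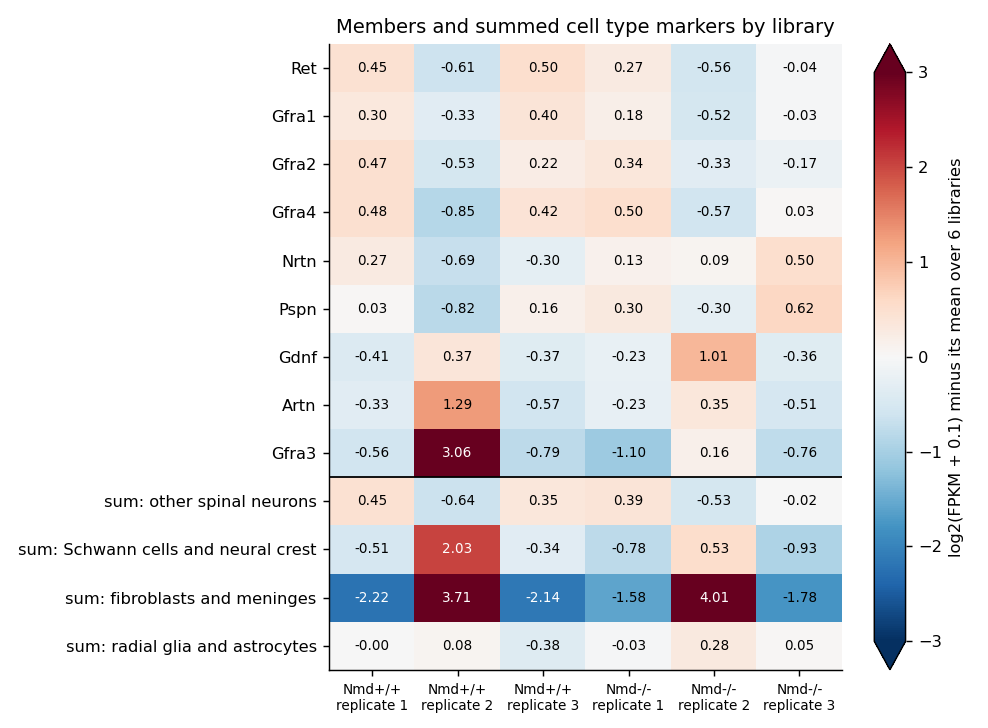
Deviation of each gene, and of the summed markers of 4 cell classes, from its mean over the 6 libraries on the log2(FPKM + 0.1) scale (colour and printed value). Ret and the co-receptor genes Gfra1, Gfra2 and Gfra4 follow the sum of other spinal neuron markers, while Gdnf, Artn and Gfra3 are high where fibroblast and Schwann cell markers are high.

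Gfra4 was low in the libraries numbered 2, and Gdnf and Artn were high in them, Artn from at most 20.9 fragments. The F test of the replicate number did not pass for Nrtn, nor for Artn at the 0.1 FPKM filter (limma adjusted p = 0.0740). The stretches of 250 bases before the RefSeq starts of these genes are shown. They are given in GRCm38.p6, 5′ to 3′ on the strand of the gene, at chr2:131043089-131043338 (minus) for Gfra4, chr15:7809798-7810047 (plus) for Gdnf, chr4:117929764-117930013 (minus) for Artn and chr17:56757549-56757798 (minus) for Nrtn. Capitals mark the promoter elements searched on both strands. The TATA box was spelled TATAAA or in reverse TTTATA. The CCAAT box was spelled CCAAT or in reverse ATTGG, and the GC box GGGCGG or in reverse CCGCCC. No 2 of the matches shown overlap.
Gfra4: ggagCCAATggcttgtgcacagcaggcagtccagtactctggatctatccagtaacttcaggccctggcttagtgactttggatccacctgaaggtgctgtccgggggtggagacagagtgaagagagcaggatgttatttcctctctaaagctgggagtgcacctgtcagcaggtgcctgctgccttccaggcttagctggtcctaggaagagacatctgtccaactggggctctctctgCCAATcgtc
Gdnf: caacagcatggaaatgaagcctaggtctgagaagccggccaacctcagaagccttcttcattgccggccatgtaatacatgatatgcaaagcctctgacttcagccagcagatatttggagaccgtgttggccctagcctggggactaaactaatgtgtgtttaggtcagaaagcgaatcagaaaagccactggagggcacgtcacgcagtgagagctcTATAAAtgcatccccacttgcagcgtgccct
Artn: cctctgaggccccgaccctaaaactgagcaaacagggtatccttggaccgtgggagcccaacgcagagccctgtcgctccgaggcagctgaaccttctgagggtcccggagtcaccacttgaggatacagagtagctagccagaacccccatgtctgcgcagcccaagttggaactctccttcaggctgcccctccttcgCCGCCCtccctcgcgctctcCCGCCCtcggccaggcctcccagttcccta
Nrtn: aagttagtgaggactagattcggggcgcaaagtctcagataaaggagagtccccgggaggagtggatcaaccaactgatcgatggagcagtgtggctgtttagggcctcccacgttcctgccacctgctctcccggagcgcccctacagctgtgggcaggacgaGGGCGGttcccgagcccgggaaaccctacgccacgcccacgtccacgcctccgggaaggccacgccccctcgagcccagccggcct
The Gdnf stretch held a TATA box beginning 31 bases before the start, an element found in 12.4% of 32851 such stretches. Gfra4 held 2 CCAAT boxes, beginning 246 and 9 bases before the start, and 33.8% of all stretches held at least 1. Artn held 2 GC boxes, 50 and 30 bases before the start, and Nrtn 1 at 86 bases, against 32.7% of all stretches with at least 1. Gfra4 had 2 CpG dinucleotides in this stretch, Gdnf 7, Artn 13 and Nrtn 19, where the median of all stretches was 6. RefSeq gives a further start for Gfra4 and for Gdnf. The stretch before that of Gdnf held no TATA box, 1 CCAAT box beginning 120 bases before the start and 14 CpG dinucleotides, and that of Gfra4 held 1 CCAAT box at 234 bases and 5 CpG dinucleotides. Of the starts shown, those of Gdnf (7810048) and Nrtn (56757548) lie upstream of the start of the gene as deposited (7811011 and 56757530). These matches are descriptions of the letters only. Of the 9 genes 6 matched the sequence table.

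Between genotypes no family member passed the test, and for all 9 the libraries of the genotypes overlapped, while 2.67% of all genes tested did not overlap. Of the 14611 genes, 0.00% (0 genes) had an adjusted p under 0.05 in limma, with or without the replicate number as a block, while 65 had an unadjusted p under 0.05 (711 with the block). The 5 members tested each had adjusted p = 0.9997 in limma. By their means 4 of the 5 were lower in Nmd-/-, as were 44.0% of all genes tested.

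Of the co-receptors with a mean of at least 1 FPKM, Gfra1 had the lowest unadjusted p in limma. It averaged 14.1 ± 3.5 FPKM in Nmd+/+ and 11.8 ± 2.8 FPKM in Nmd-/- (SD, n = 3 each), a ratio of 0.838, and was lower in Nmd-/- in 3 of 3 same-numbered pairs, as were 10.6% of all genes. Its log2 difference, on the log2(FPKM + 1) scale used for all such differences, was -0.23 (SE 0.24, 95% interval -0.79 to 0.33), and the SE was 0.11 with the replicate block (95% interval -0.47 to 0.01). The pair differences were -0.12, -0.17 and -0.40 for the numbers 1, 2 and 3, and the deposited intervals of the libraries were apart in the last of these alone.

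Ret averaged 3.10 ± 1.19 FPKM in Nmd+/+ and 2.56 ± 0.74 FPKM in Nmd-/- (SD, n = 3 each), with a log2 difference of -0.18 (SE 0.26, 95% interval -0.80 to 0.44). It was lower in 2 of 3 pairs, by -0.14 in pair 1 and -0.43 in pair 3, and stood at 0.03 in pair 2. Gfra2 averaged 14.02 ± 4.62 and 12.7 ± 3.3 FPKM, with a log2 difference of -0.10 (SE 0.27, 95% interval -0.74 to 0.54), which came to 0.09 when Nmd+/+ replicate 1 was left out and to 0.03 when Nmd-/- replicate 2 was. Gfra4 averaged 10.4 ± 4.5 and 9.88 ± 3.56 FPKM, with a log2 difference of -0.03 (SE 0.37, 95% interval -0.90 to 0.84), whose sign turned when Nmd+/+ replicate 1 (0.18), replicate 3 of the same genotype (0.15) or Nmd-/- replicate 2 (0.22) was left out. In pair 3 the deposited intervals of all 4 of these genes were apart, with the Nmd-/- library lower. In pair 2 Ret, Gfra2 and Gfra4 had the opposite sign, and the intervals of Gfra2 were apart there too, with Nmd-/- higher. In pair 1 those of Gfra2 were apart with Nmd-/- lower, and those of the other three overlapped. The sum of spinal neuron markers was likewise lower in Nmd-/- replicate 3 (199.3 FPKM) than in Nmd+/+ replicate 3 (256.5 FPKM), and its part in the difference of pair 3 was not tested.

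Nrtn was the 1 tested member with a higher mean in Nmd-/-, at 3.98 ± 0.67 FPKM against 2.91 ± 1.02 FPKM in Nmd+/+ (SD, n = 3 each), a ratio of 1.37. Its log2 difference was 0.37 (SE 0.21, 95% interval -0.12 to 0.87). With the replicate block the interval was 0.03 to 0.72, and the adjusted p in limma over all genes was 0.992. Nmd-/- was higher by 0.59 in pair 2 and 0.64 in pair 3, with deposited intervals apart in both, and lower by 0.11 in pair 1, where they overlapped. The difference stayed positive without each library in turn, between 0.20 and 0.57.

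For the 4 members under 1 FPKM the exact two-sided permutation test between genotypes gave p = 0.6 for Gfra3, 0.5 for Gdnf, 0.9 for Artn and 0.4 for Pspn. In limma with the filter at 0.1 FPKM, the adjusted p of Gfra3, Gdnf and Artn was 0.9999. Gdnf averaged 0.787 ± 0.286 FPKM in Nmd+/+ and 1.05 ± 0.65 FPKM in Nmd-/- (SD, n = 3 each), higher in 3 of 3 pairs but with intervals apart in pair 2 alone. Without Nmd-/- replicate 2 its log2 difference of 0.16 became -0.09. The Gfra3 means of 0.777 ± 1.222 and 0.0979 ± 0.0941 FPKM (SD, n = 3 each) differed through replicate 2, where Nmd+/+ had 2.19 and Nmd-/- 0.205 FPKM. Its log2 difference of -0.49 came to -0.04 with replicate 2 of both genotypes left out and 0.03 without Nmd+/+ replicate 2. With a pseudocount of 0.1 in place of 1 the log2 difference was -1.14 for Gfra3, 0.28 for Gdnf, -0.26 for Artn (from -0.12) and 0.42 for Pspn (from 0.07).

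**Figure D3:**
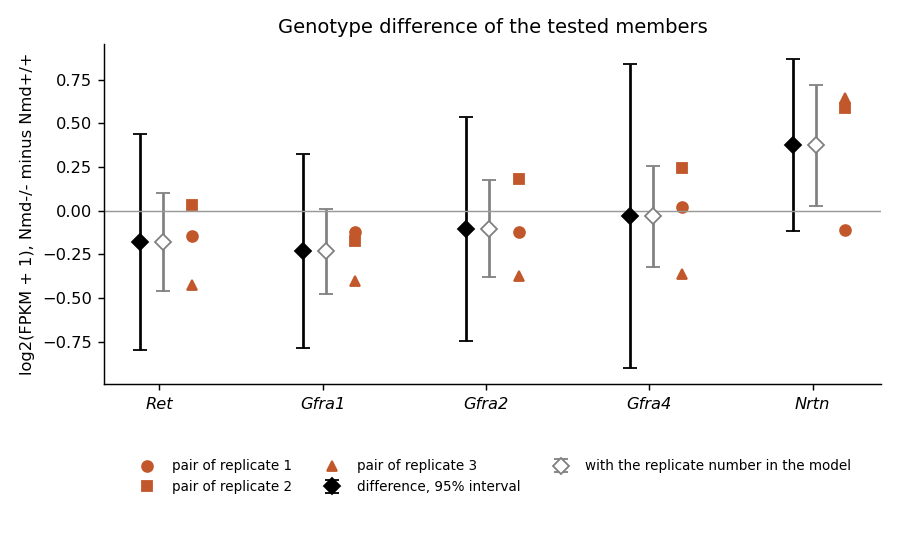
Difference of log2(FPKM + 1), Nmd-/- minus Nmd+/+, for the 5 members tested, with 95% limma intervals (black, and grey with the replicate number in the model) and the 3 same-numbered pairs as separate points. The black intervals all cross 0, and with the replicate number in the model that of Nrtn alone lies above 0, before adjustment over all genes.

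The balance of Ret with its co-receptors was steadier than any of the levels behind it. Summed FPKM of Gfra1 to Gfra4 came to 12.6, 15.2 and 11.6 per FPKM of Ret in Nmd+/+ replicates 1, 2 and 3, and to 13.6, 14.3 and 12.9 in Nmd-/- replicates 1, 2 and 3. Across the libraries this ratio varied 1.31-fold, while Ret itself varied 2.22-fold and the co-receptor sum 1.83-fold. Ret, Gfra1, Gfra2 and Gfra4 were all lower in both libraries numbered 2, as were 18.8% of all genes tested. Against the sum of other spinal neuron markers Ret also stayed between 1.24% and 1.501%. Such steadiness was thus not particular to Ret and its co-receptors. Both libraries numbered 2 had the most co-receptor transcript per Ret transcript. The log2 of Ret over the co-receptor sum was -3.71 ± 0.20 in Nmd+/+ and -3.76 ± 0.08 in Nmd-/- (SD, n = 3 each), a difference of -0.05 that lay within the spread between replicates (exact two-sided permutation p = 0.7). It was 0.03 without Nmd+/+ replicate 3 and 0.02 with Gfra1 as the only co-receptor, and so had no stable sign.

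Taken singly, Gfra1 came to between 4.19 and 5.78 FPKM per FPKM of Ret, Gfra2 to between 3.93 and 5.72, and Gfra4 to between 3.02 and 4.14. Gfra4 per Ret averaged 3.31 ± 0.28 in Nmd+/+ and 3.81 ± 0.30 in Nmd-/- (SD, n = 3 each; exact two-sided permutation p = 0.2, Benjamini-Hochberg 0.84 over the 18 quantities of this kind compared).

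Nmd-/- was higher for Gfra4 per Ret in 3 of 3 same-numbered pairs, by 0.55, 0.55 and 0.40, and for Gfra2 per Ret in 3 of 3, by 0.20, 0.56 and 0.46. The exact sign-flip permutation test over pairs gave p = 0.25 for each, the smallest that 3 pairs allow. For Gfra1 per Ret the pair differences were 0.17, -0.89 and 0.41.

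The makeup of the co-receptor pool was much alike in the libraries numbered 1 and 3. Gfra1 made up between 32.2% and 37.2% of the summed co-receptor FPKM in those 4 libraries, Gfra2 between 33.97% and 38.3%, and Gfra4 between 28.4% and 30.5%. In both libraries numbered 2 Gfra4 had a smaller share, 19.8% in Nmd+/+ and 25.0% in Nmd-/-. Gfra3 took 8.30% of the pool in Nmd+/+ replicate 2, 0.7998% in Nmd-/- replicate 2 and at most 0.182% elsewhere.

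Among the ligands Nrtn made up between 51.4% and 83.1% of the summed FPKM. Gdnf had 28.4% and 31.2% in Nmd+/+ and Nmd-/- replicate 2, against between 11.1% and 17.7% in the other 4. Ligand transcripts together came to between 7.98% and 22.5% of the co-receptor sum. The means of this share were 11.1% ± 3.5 in Nmd+/+ and 16.7% ± 6.0 in Nmd-/- (SD, n = 3 each; exact two-sided permutation p = 0.2, Benjamini-Hochberg 0.84 over the 18 quantities).

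**Figure D4:**
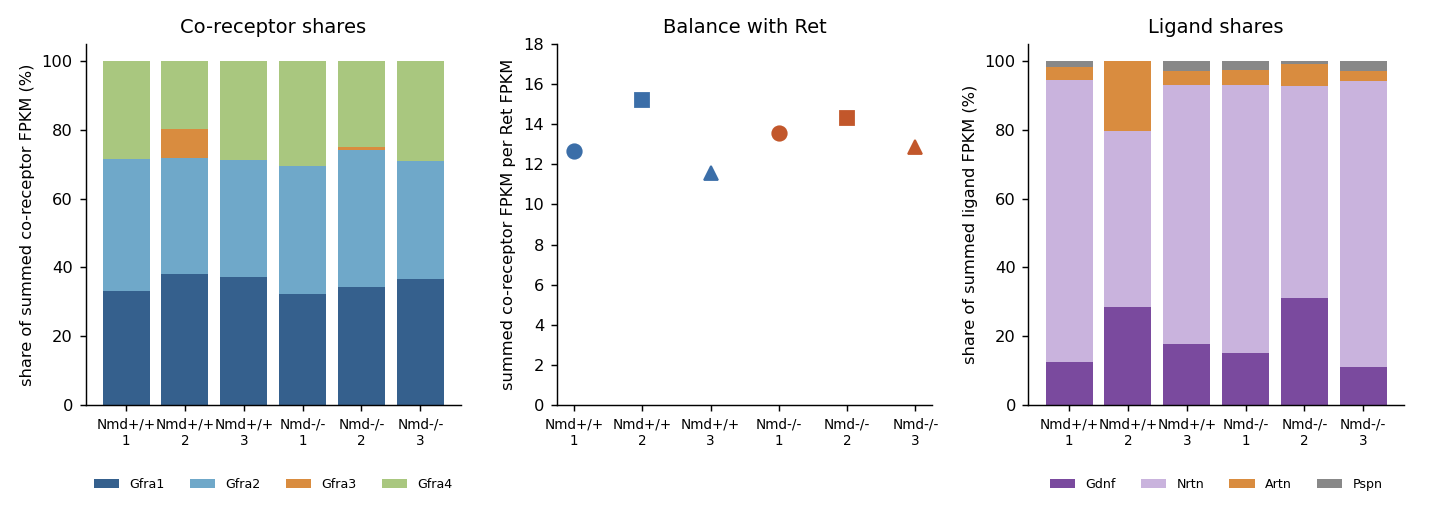
Shares of the 4 co-receptor genes in their summed FPKM (left), summed co-receptor FPKM per FPKM of Ret (middle) and shares of the 4 ligand genes in their summed FPKM (right), for each library with its replicate number. The middle values lie between 11.6 and 15.2, with replicate 2 highest in each genotype, and the share of Gdnf is largest in both libraries numbered 2.

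Genes around Ret signalling were read from 4 lists of 45 genes, of which 40 were tested. None of the 40 passed between genotypes (limma, 0 genes at an unadjusted p under 0.05 as well), 25 had a higher and 15 a lower mean in Nmd-/-. The F test of the replicate number passed for 18 of the 40, beside 28.6% of all genes.

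Of the alternative receptors and modulators, 8 of 9 were tested, 6 with a higher and 2 with a lower mean in Nmd-/-, and the median log2 difference was 0.02, as for all genes tested (0.02). Ncam1, a cell adhesion molecule that can bind Gdnf together with Gfra1, had the highest mean of the list and measured between 87.5 and 127.6 FPKM. Islr2, a membrane protein that interacts with Ret on motor axons, measured 2.12 ± 0.81 and 1.76 ± 0.40 FPKM in Nmd+/+ and Nmd-/-, and the sorting receptor gene Sorl1, which takes up Gdnf and Gfra1, 23.8 ± 4.9 and 27.5 ± 8.2 FPKM (SD, n = 3 each). Sorl1 was highest in both libraries numbered 2 and differed between replicate numbers (limma F test adjusted p = 0.0122), opposite in direction to Gfra1.

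Adaptors and effectors of active Ret were tested for 15 of 17 genes, 12 with a higher and 3 with a lower mean in Nmd-/- (median 0.08). Dok6, an adaptor that binds phosphorylated Ret, measured 4.22, 4.05 and 5.00 FPKM in Nmd+/+ and 3.94, 3.61 and 3.47 FPKM in Nmd-/-. Its genotypes did not overlap, as was so for 2.67% of all genes (0.910% with Nmd-/- lower, as here), and its log2 difference of -0.21 (SE 0.13) had adjusted p = 0.9997 in limma. Pdlim7, a scaffold that binds the Ret tail, measured 52.7 ± 8.3 and 60.0 ± 4.3 FPKM, and Grb10, the adaptor with the highest mean, 187.7 ± 43.2 and 211 ± 21 FPKM (SD, n = 3 each).

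All 10 genes induced by receptor tyrosine kinases were tested, 5 with a higher and 5 with a lower mean in Nmd-/- (median -0.01). Etv5, a transcription factor induced by Gdnf in kidney and other tissues, had the highest mean and measured 26.3, 17.7 and 15.6 FPKM in Nmd+/+ and 29.3, 19.0 and 20.9 FPKM in Nmd-/-. It was highest in the libraries numbered 1 and differed between replicate numbers (limma F test adjusted p = 0.0141). Spry1, an inhibitor of Ret signalling, measured 15.7 ± 3.5 and 18.04 ± 3.80 FPKM, and the transcription factor gene Etv1 3.55 ± 0.86 and 2.93 ± 0.52 FPKM (SD, n = 3 each). Neither had an adjusted p in limma under 0.9997 between genotypes.

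Transcription factors known to act on Ret were tested for 7 of 9, 2 with a higher and 5 with a lower mean in Nmd-/- (median -0.02). Pax2, which acts on Ret in the kidney and marks spinal interneurons, had the highest mean of the list and measured 25.4, 8.72 and 18.5 FPKM in Nmd+/+ and 23.6, 10.2 and 16.2 FPKM in Nmd-/-. As for Ret, its lowest values were those of replicate 2 (limma F test adjusted p = 0.00103). Sox10, which acts on Ret in the neural crest, was highest there instead, at 5.03 and 3.78 FPKM in Nmd+/+ and Nmd-/- replicate 2 against between 0.620 and 1.95 FPKM in the other libraries (limma F test adjusted p = 0.00132). Pax3 measured 2.36 ± 0.45 and 2.94 ± 1.51 FPKM (SD, n = 3 each). Sox10 is also among the Schwann cell and neural crest markers above.

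**Figure D5:**
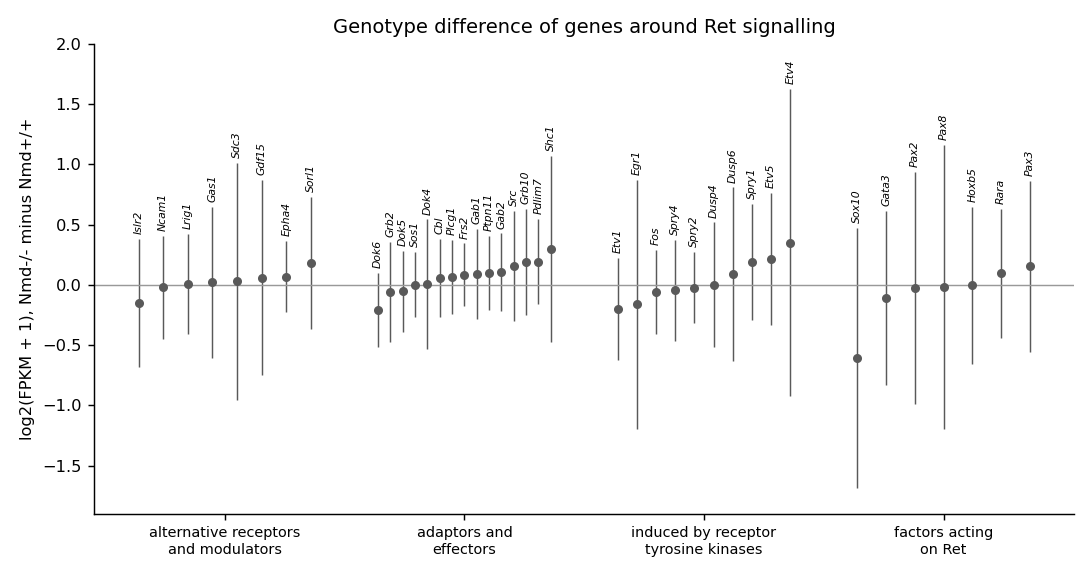
Difference of log2(FPKM + 1), Nmd-/- minus Nmd+/+, with 95% limma intervals, for the 40 tested genes of 4 lists around Ret signalling, ordered within each list. The 95% intervals of all 40 genes cross 0.

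The genes most like each tested member over the 6 libraries were named by the Pearson r of log2(FPKM + 1), a measure of likeness over 6 points that share their libraries and the difference between replicate numbers. For Ret they were Oprl1, Crabp1 and Scamp1 (r between 0.9985 and 0.9995), for Gfra1 they were Idh1, Trib2 and Tbcb (0.9958 to 0.9985), for Gfra2 they were Arhgdig, Cacnb1 and Plekhn1 (0.997 to 0.9984), and for Gfra4 they were Agap2, Apba1 and Actl6b (0.9988 to 0.9995). An r of at least 0.95 was common, since 4.74% of all genes tested reached it with Ret, 3.48% with Gfra1, 5.92% with Gfra2 and 5.82% with Gfra4. Nrtn stood apart, with Bcl2l13, Ing3 and Lrrc56 as the nearest (0.9686 to 0.9833) and 0.0411% of genes at 0.95 or more.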

How the data were processed

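Each library has 1 deposited table of FPKM per gene, with 95% intervals and a status, in the layout of Cufflinks per the file headers. Cufflinks 2.2.1, SAMtools 1.3, cutadapt 1.8, Trim Galore 0.4.0, FastQC 0.10.1 and GRCm38 appear in the submitters' processing notes. Neither annotation release nor use of strand is given in the sources used here. Loci in the tables start from 0 and are printed from 1.

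Differences are Nmd-/- minus Nmd+/+ on log2(FPKM + 1), which understates changes of low genes. They were tested in R 4.3.3 with limma 3.58.1 and an intensity trend over 14611 genes with a mean of at least 1 FPKM and an accepted status in all 6 libraries. Adjusted p-values are Benjamini-Hochberg values over all genes tested, two-sided, with a threshold of 0.05. Of the family, Ret, Gfra1, Gfra2, Gfra4 and Nrtn passed this filter. For the rest, and for ratios, exact permutation tests of 3 against 3 libraries were used. Fragments behind a value were read from the deposited interval, taken to reach 2 SDs to each side. FPKM tables carry no counts, and intervals cover estimation error only.

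Over genes, libraries sharing a number deviated together from the means of their genotypes (r = 0.82, 0.70 and 0.39 for numbers 1 to 3). The highest r of the same Nmd+/+ libraries with an Nmd-/- library of another number was -0.44, 0.11 and 0.28. Deviations were taken from a mean of 3 libraries, so a high r with the same number pulls down the others in part by construction. The pairing was thus least marked for number 3. The pairing rests on these values and on no label. The fit with a replicate block was an alternative.

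From each pathway list the 2 genes with the smallest unadjusted p and the one with the highest mean were named, and for each tested member the 3 genes most like it. The members and lists were chosen with earlier results of these data known. Promoter sequences are from RefSeq, GRCm38.p6. Other alternatives were another pseudocount, other filters, median-of-ratios scaling, quantile normalization, no intensity trend, and leaving libraries out. The filter at 0.1 FPKM and the pair differences of the ratios were added after seeing the data.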

Additional observations from a re-analysis of the deposited data

How the results depend on the processing

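The count of 0 genes between genotypes was the same under every alternative run. The replicate number test passed for 4173 genes, for 12 with no filter on low values (the cause was not tested), and for between 2280 (without Nmd+/+ replicate 1) and 6470 (without Nmd-/- replicate 2) when 1 library was left out. Its call for Ret ended without Nmd+/+ replicate 2 (adjusted p = 0.0790 in limma), and those of Ret, Gfra1, Gfra2 and Gfra4 ended with no filter (adjusted p = 0.359, 0.301, 0.374 and 0.326). The log2 difference of Ret over the co-receptor sum ranged from -0.16 to 0.0334 with 1 library left out and was 0.0175 with Gfra1 as the only co-receptor. With the replicate block it was -0.05 (SE 0.07, exact sign-flip permutation p = 0.5 over 3 pairs), and the block changed no call between genotypes.

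Leaving out 1 library at a time gave log2 differences between -0.38 and 0.0907 for Gfra2, -0.42 and 0.22 for Gfra4, -0.76 and 0.0318 for Gfra3, -0.0859 and 0.30 for Gdnf, and -0.24 and 0.0880 for Artn. That of Artn was 0.0187 with replicate 2 of both genotypes left out. Ret (-0.45 to -0.02), Gfra1 (-0.44 to -0.05), Nrtn (0.20 to 0.57) and Pspn (0.03 to 0.11) kept their sign in these runs. A pseudocount of 0.1 moved Gfra3, Gdnf, Artn and Pspn away from 0 by over 1.5 times. Depth limits Pspn and, outside replicate 2, Gfra3 and Artn.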
